A study of Homo sapiens with 20 samples.

Results

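ND1 and ND2 are the mitochondrial mRNAs for a pair of core membrane subunits of respiratory complex I. They were taken by position on the mitochondrial chromosome: positions 3307 to 4262 for ND1 (956 bases) and 4470 to 5511 for ND2 (1042 bases), each annotated as a single exon with no intron. Coordinates are those of RefSeq for GRCh38, and the numbers in the profiles were assumed to be on that build. The listed positions run from 2 to 16571, and an offset from the RefSeq numbering was not checked. The gene bounds, base numbers and codon numbers given below all rest on that assumption. The members were 2 of the 37 mitochondrial genes and 1998 of the 16570 listed positions, and they were read in all 14 libraries that carry a profile. Pseudouridine, an isomer of uridine, was measured by CMC sequencing of RNA from isolated mitochondria of K562, an established line from human chronic myelogenous leukaemia. The carbodiimide CMC forms a lasting adduct with pseudouridine, and reverse transcription is disturbed at the adduct. The libraries were treated with 0.5 M CMC.

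All cells were K562. The control group (4 libraries) was wildtype with a non-targeting sgRNA. The NME6 knockout group (4 libraries) was labelled NME6 KO, and the RPUSD4 knockdown group (3 libraries) carried that knockdown. The NME6 rescue group (3 libraries) had the NME6 knockout together with WT-NME6 cDNA. RPUSD4 makes pseudouridine in mitochondrial 16S rRNA. NME6 belongs to the family of nucleoside diphosphate kinases and is found in mitochondria. The labels do not say whether the knockout is 1 clone, how the knockdown was made, what drives the cDNA, or whether replicates were separate cultures. The p-values therefore cover no more than the spread among the deposited libraries, which may be technical. The profiles hold mitochondrial positions, so neither the NME6 and RPUSD4 transcripts nor nuclear markers of K562 were checked.

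Complex I passes electrons from NADH to ubiquinone and pumps protons across the inner membrane. ND1 helps to form the pocket where ubiquinone binds, and ND2 is one of the antiporter-like subunits that move protons. Both mRNAs are cut from the heavy-strand precursor transcript, where tRNAs mark the cuts, and their stop codons are completed by the poly(A) tail. ND1 follows the tRNA-Leu(UUR) gene TRNL1, which ends at 3304. Directly after it, at 4263, comes the tRNA-Ile gene TRNI. ND2 starts right after the tRNA-Met gene TRNM (4402 to 4469) and ends right before the tRNA-Trp gene TRNW (from 5512).

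Each profile gives 1 signed number per position, CMC minus untreated, which is called the level here. Its unit is not stated; the values were taken as percentage points. No depth or base is given, so a named position need not be a uridine and an exact 0 may mean no reads. Over the whole chromosome 27.7% to 68.2% of positions per library were exact zeros. The untreated profile appears to be shared within a group. Identical negative levels occurred in all libraries of a group at 1 (control), 2 (NME6 knockout), 19 (RPUSD4 knockdown) and 5 (NME6 rescue) ND1 positions. In ND2 they occurred at 0, 1, 15 and 1 positions, so the control shows none there. They occurred in none of 73 pairs of libraries from different groups. The spread between replicates then leaves out the error of the untreated libraries. These numbered 2 in the control, 2 in the NME6 knockout, 1 in the RPUSD4 knockdown and 1 in the NME6 rescue. A lower CMC level and a higher untreated level cannot be told apart.

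Averaged over the whole gene, ND1 read 0.0762, 0.167, 0.169 and 0.151 points per position in control libraries 1 to 4. NME6 knockout libraries read 0.0671, 0.165, 0.167 and 0.139 points, RPUSD4 knockdown libraries 0.165, 0.140 and 0.124 points, and NME6 rescue libraries 0.115, 0.105 and 0.0820 points. Replicate 1 of the control and of the NME6 knockout stood well below its group, and the rescue libraries lay inside the range that these low libraries open. The ND1 group means were 0.141 ± 0.0438 (SD, n = 4) in the control, 0.135 ± 0.0467 (n = 4) in the knockout, 0.143 ± 0.0205 (n = 3) in the knockdown and 0.101 ± 0.0170 (n = 3) in the rescue. In order of level, knockdown, control and knockout differed by less than their SDs, and the step down to the rescue exceeded only the SD of the rescue.

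ND2 read 0.0742, 0.155, 0.165 and 0.175 points in control libraries 1 to 4. The NME6 knockout libraries read 0.0902, 0.166, 0.176 and 0.147 points, the RPUSD4 knockdown libraries 0.180, 0.163 and 0.134 points, and the NME6 rescue libraries 0.132, 0.129 and 0.108 points. As in ND1, replicate 1 was the low library of both 4-library groups, and all group ranges overlapped. The ND2 group means were 0.142 ± 0.0462 (SD, n = 4) in the control, 0.145 ± 0.0384 (n = 4) in the knockout, 0.159 ± 0.0233 (n = 3) in the knockdown and 0.123 ± 0.0127 (n = 3) in the rescue. In order of level, knockdown, knockout and control differed by less than their SDs, and the step from control to rescue exceeded only the SD of the rescue.

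**Figure D1:**
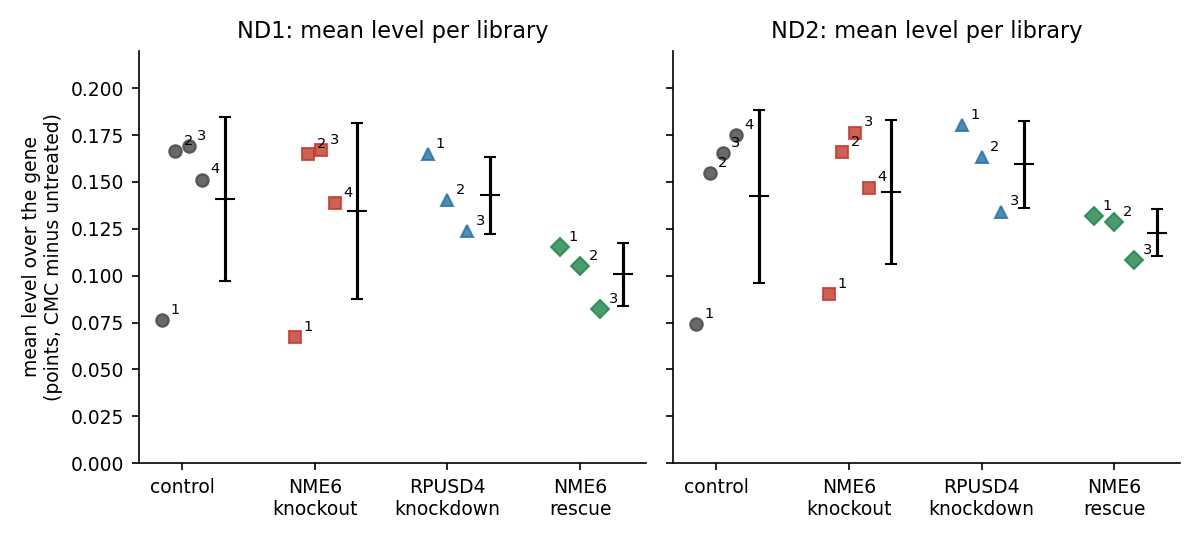
Mean level over ND1 (left) and ND2 (right) in points, CMC minus untreated, in each of the 14 libraries by group; numbers beside the points are replicate numbers, and bars are the group mean and SD. Control replicate 1 and NME6 knockout replicate 1 are low in both genes, and the rescue libraries lie between 0.0820 and 0.115 points in ND1 and between 0.108 and 0.132 points in ND2.

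Among the 13 mRNAs, ordered from the highest mean level per position, ND1 came 7th in the control, 9th in the NME6 knockout, 8th in the RPUSD4 knockdown and 8th in the rescue. ND2 came 5th, 6th, 3rd and 3rd. The whole set was narrow: control means ran from 0.116 points in COX2 to 0.156 points in COX1, both mRNAs for cytochrome c oxidase subunits. ND2 read above ND1 in 11 of 14 libraries, but in 1 of the 4 control libraries only. The mean gap, ND2 minus ND1, was 0.0017 ± 0.0154 points (SD, n = 4) in the control and 0.0223 ± 0.0051 points (n = 3) in the rescue, and their ranges overlapped.

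The share of positions listed at exactly 0 also differed between libraries. In ND1 it was 22.2% to 57.3% in the control, 30.2% to 72.1% in the NME6 knockout, 32.7% to 54.9% in the RPUSD4 knockdown and 22.2% to 28.9% in the rescue. In ND2 the ranges were 24.1% to 49.1%, 35.4% to 66.0%, 28.2% to 49.4% and 23.4% to 31.2%. Replicate 1 of the control and of the knockout had the most zeros of its group in both genes, and the rescue had few zeros. Over the 14 libraries the share of zeros and the mean level had r = -0.489 in ND1 and r = -0.505 in ND2, given as a description of libraries that also differ in group. The rescue libraries fall outside the trend of the others, with few zeros and low means. High values were also rarer there: 0 to 3 ND1 positions reached 1 point in a rescue library, against 7 to 24 in control, 7 to 27 in knockout and 23 to 28 in knockdown libraries. In ND2 there were 3 to 10 such positions in the rescue and 6 to 17 in the control. Knockout libraries had 7 to 31 and knockdown libraries 21 to 31, so the rescue stayed apart from the knockdown only. Such positions were not counted in other genes, so these counts show nothing particular to ND1. The mean level of all 13 mRNAs was lower in the rescue than in the control and than in the knockout.

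**Figure D2:**
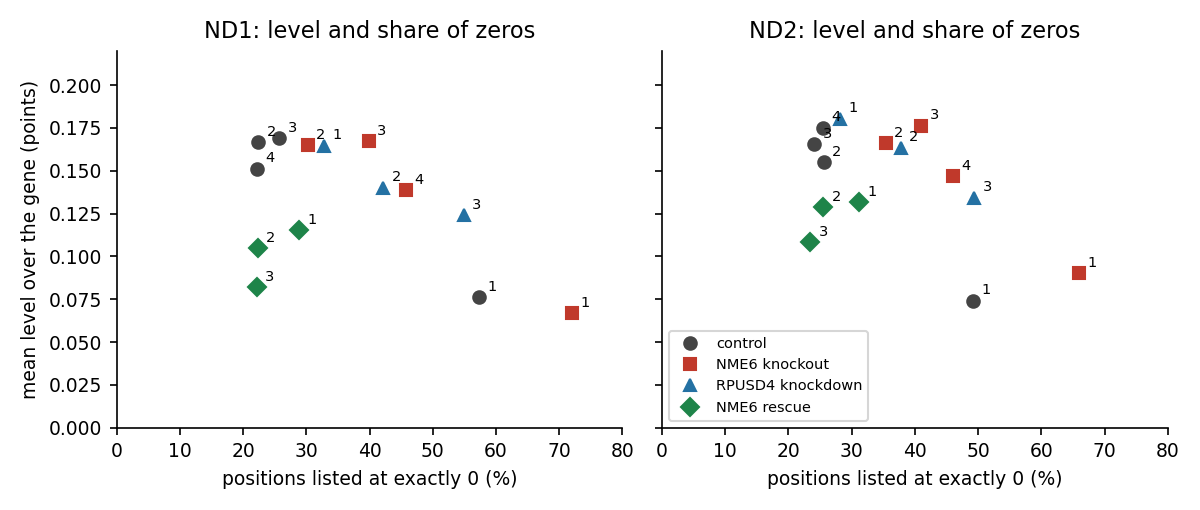
Mean level in points against the percent of positions listed at exactly 0, for ND1 (left) and ND2 (right), 1 point per library with its replicate number. Replicate 1 of the control and of the NME6 knockout lie low and to the right, and the 3 rescue libraries lie low and to the left, with 22.2% to 31.2% zeros.

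Leaving out exact zeros changed the picture. The mean of the non-zero ND1 levels was 0.178 to 0.228 points in control, 0.236 to 0.278 points in NME6 knockout, 0.242 to 0.275 points in RPUSD4 knockdown and 0.105 to 0.162 points in rescue libraries. The rescue libraries lay below all others, and the control libraries lay below those of both perturbed groups. For ND2 the ranges were 0.146 to 0.235 points in the control, 0.257 to 0.299 in the knockout, 0.251 to 0.265 in the knockdown and 0.142 to 0.191 in the rescue, so that control and rescue overlapped each other and both lay below the overlapping pair of perturbed groups. The part of the zeros in these differences was not tested.

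The RPUSD4 knockdown was compared with the control to ask what depends on this synthase. No change of ND1 or ND2 passed the test. The ND1 means differed by 0.0022 points (SE 0.0299, 95% interval -0.0617 to 0.0661; adjusted p = 0.978 over 37 genes by limma with the Benjamini-Hochberg method). The ND2 means differed by 0.0170 points (SE 0.0299, 95% interval -0.0470 to 0.0809, limma adjusted p = 0.974). None of the 37 genes passed, a background of 0%. The libraries of ND1 and of ND2 overlapped between the groups here and in the comparisons below, while 2.7% of the 37 genes were lower without overlap in the knockdown than in the control, 16.2% lower in the rescue than in the knockout and 10.8% lower in the rescue than in the control. For the knockout against the control this share was 0%. In the knockout 2.7% were higher and 2.7% lower without overlap than in the knockdown. For knockdown minus control both signs turned without control replicate 1, to -0.0193 points in ND1 and -0.0058 points in ND2. Over non-zero positions alone, ND1 was higher by 0.0503 points and ND2 by 0.0581 points (both limma adjusted p = 0.0458), in a fit that called 27% of the 37 genes, all of them higher.

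For the NME6 knockout against the control, the question was whether loss of NME6 alters the same modification. Neither mRNA passed the test: the ND1 difference was -0.0062 points (SE 0.0276, 95% interval -0.0654 to 0.0529) and the ND2 difference 0.0025 points (SE 0.0277, 95% interval -0.0568 to 0.0617), with a limma adjusted p of 0.991 for both and 0% of the 37 genes called. Without control replicate 1 these became -0.0277 and -0.0203 points. Without NME6 knockout replicate 1 they became 0.0163 and 0.0207 points, so the sign rests on which of these libraries is in. Over non-zero positions both were higher, ND1 by 0.0490 points (limma adjusted p = 0.0188) and ND2 by 0.0717 points (limma adjusted p = 0.0073), where 37.8% of the 37 genes were called, all higher.

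The NME6 rescue was set against the NME6 knockout to see what the returned cDNA changes. ND1 read 74.8% of the knockout level, or -0.0338 points (SE 0.0299, 95% interval -0.0977 to 0.0301, limma adjusted p = 0.510). ND2 read 84.9%, or -0.0219 points (SE 0.0299, 95% interval -0.0858 to 0.0421, limma adjusted p = 0.705). Neither passed, nor did any of the 37 genes (0% called, 5 at an unadjusted p under 0.05), and all 13 mRNAs read lower in the rescue. When each library was scaled to its own mean outside these 2 genes, the ND2 difference turned to 0.0121 points (limma adjusted p = 0.384). Over non-zero positions ND1 was lower by 0.119 points (limma adjusted p = 2.44e-05) and ND2 by 0.105 points (limma adjusted p = 0.000483), where 43.2% of the 37 genes were called, all lower. Without replicate 1 of the control and of the knockout the ND1 difference passed as well (-0.0563 points, limma adjusted p = 0.0115), as did 32.4% of the 37 genes, all lower. The libraries left out had the lowest ND1 and ND2 means of their groups, so leaving them out raises those group means.

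Against the control, the rescue asks whether the level returns to that of cells with NME6. ND1 read 71.5% of the control, or -0.0400 points (SE 0.0299, 95% interval -0.104 to 0.0238, limma adjusted p = 0.602; exact permutation p = 0.229, where 0.0571 is the smallest possible for 4 against 3 libraries). ND2 read 86.4% of the control, or -0.0194 points (SE 0.0299, 95% interval -0.0834 to 0.0446, limma adjusted p = 0.784), and 0% of the 37 genes passed. Without replicate 1 of the control and of the knockout both passed. ND1 differed by -0.0616 points (limma adjusted p = 0.0065) and ND2 by -0.0422 points (limma adjusted p = 0.0412). That fit called 37.8% of the 37 genes, all lower, and again left out the lowest library of both groups. Scaling of the libraries instead turned ND2 to 0.0141 points (limma adjusted p = 0.427). Over non-zero positions ND1 was lower by 0.0696 points (limma adjusted p = 0.0057), with 24.3% of the 37 genes called, and ND2 by 0.0330 points (limma adjusted p = 0.310), which did not pass.

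Between the perturbed groups, the NME6 knockout minus the RPUSD4 knockdown gave -0.0084 points in ND1 (SE 0.0299, 95% interval -0.0723 to 0.0555) and -0.0145 points in ND2 (SE 0.0299, 95% interval -0.0785 to 0.0495), with a limma adjusted p of 0.953 for both and 0% of the 37 genes called. Both signs turned without NME6 knockout replicate 1, to 0.0141 and 0.0037 points. These 5 comparisons share groups and are not independent of each other. The other 5 complex I mRNAs (ND3, ND4L, ND4, ND5 and ND6) also had no call in any comparison, and all 5 read lower in the rescue than in the knockout (median -0.0564 points) and than in the control (median -0.0452 points).

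**Figure D3:**
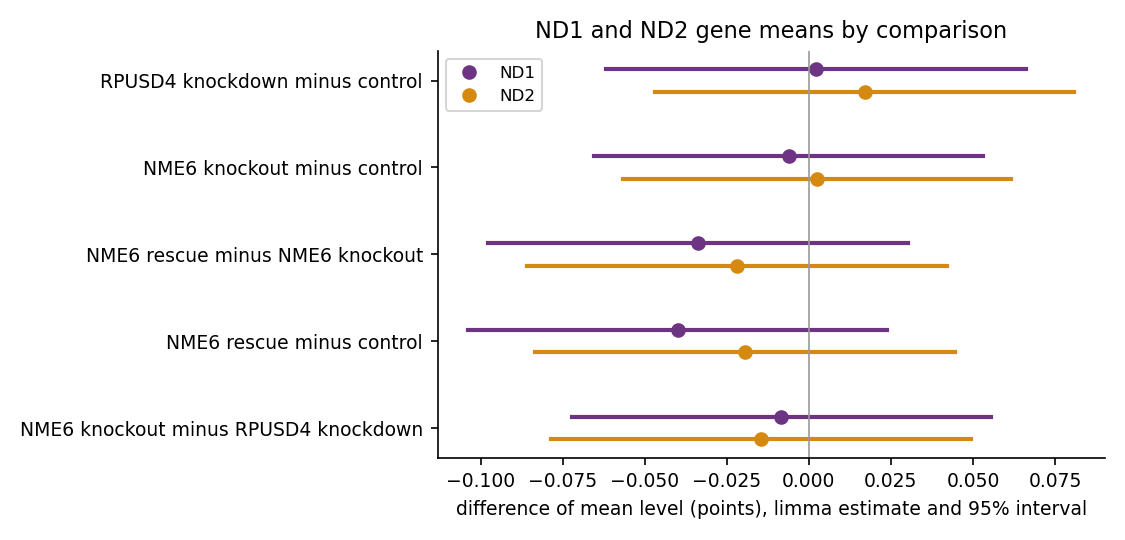
Differences of the ND1 and ND2 gene means in points for the 5 comparisons, first group minus second; points are limma estimates from the fit over 37 genes and lines are 95% intervals. All 10 intervals include 0, and the estimates for the rescue lie lowest, at -0.0400 to -0.0194 points.

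Levels along the genes were then averaged in windows of 100 bases counted from the gene start, a step added after the data had been examined; 10 windows of each mRNA were kept, and the last 42 bases of ND2 were left out. In ND1 the control was highest at bases 501 to 600 (0.192 points) and lowest at bases 201 to 300 (0.0923 points). In ND2 the control was highest at bases 401 to 500 (0.184 points) and lowest at bases 1 to 100 (0.0964 points). Zeros were most frequent at the start of ND2, with 81.7% of the values in its first 100 bases. In ND1 they were most frequent at bases 201 to 300 (54.9%), the window of the lowest control level, followed by the last 56 bases (52.2%) and the first 100 (51.4%). The middle of ND2 had the fewest zeros, with 15.9% at bases 601 to 700.

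One window stood apart in the rescue. At bases 201 to 300 of ND2 (positions 4670 to 4769) the rescue libraries read 0.197, 0.201 and 0.182 points. The NME6 knockout libraries read 0.126, 0.0794, 0.0795 and 0.0845 points. The control lay between 0.0849 and 0.129 points and the RPUSD4 knockdown between 0.0726 and 0.117 points. All 3 rescue libraries were above all 11 others, in a gene whose mean was lowest in the rescue; 2.88% of windows lay wholly above the knockout and 3.6% wholly above the control. The rescue exceeded the knockout by 0.101 points (SE 0.0209, limma adjusted p = 0.0102 over 139 windows), the only one of the 20 ND1 and ND2 windows to pass, where 5.76% of all windows passed, 2.16% as higher and 3.6% as lower. Against the control the difference was 0.0829 points (SE 0.0209, limma adjusted p = 0.0582), above the threshold, where 0.719% of windows passed.

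This window was seen before it was tested, so its p-value is a description. The difference was spread over the window: 82 of its 100 positions read higher in the rescue mean than in the knockout mean. The largest single contribution, position 4756, made 5.06% of the sum. As the window was picked for its high rescue, the count of 82 is a description. Over 14928 positions the median difference of rescue minus knockout was -0.000451 points. At 6 positions (4707, 4710, 4711, 4757, 4758 and 4767) all rescue libraries lay above all 11 others, against 1.13% of the 14928 positions of the chromosome that were not at 0 in every library; they were counted in a window picked because the rescue was high there. The rescue had 8.33% zeros in this window, against 35.3% in the knockout, 21.7% in the knockdown and 20% in the control. Over non-zero positions the difference was 0.0477 points (limma adjusted p = 0.291), which did not pass. In windows moved by 50 bases it did not pass either (0.0715 points, limma adjusted p = 0.0666 and 0.0196 points, limma adjusted p = 0.524). With replicate number as a block the call was lost too (0.0980 points, limma adjusted p = 0.0743).

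The other windows gave no call in any of the 5 comparisons in the main fit. Some other settings that kept all libraries did call more windows, as given in the closing section. Without NME6 knockout replicate 1, 5 of the 20 passed for rescue minus knockout (1 higher and 4 lower), where 33.8% of all 139 windows passed. Without control replicate 1, 3 of the 20 passed for rescue minus control (1 higher and 2 lower), where 23% of all windows passed. In the RPUSD4 knockdown 4 of 10 ND1 windows and 8 of 10 ND2 windows read higher than the control, and none passed (0% of all 139). In the NME6 knockout 3 of 10 and 6 of 10 read higher than the control, and none passed (0%). Over all 139 windows 70 read higher than the control in the knockdown and 77 in the knockout. The rescue read lower than the control in all 10 ND1 windows and in 8 of 10 ND2 windows. Over all 139 windows 120 read lower there, so the ND1 count is close to that of the other genes. All 10 ND2 windows read lower in the NME6 knockout than in the RPUSD4 knockdown, none past the threshold (0%), against 68 lower and 68 higher over all windows.

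**Figure D4:**
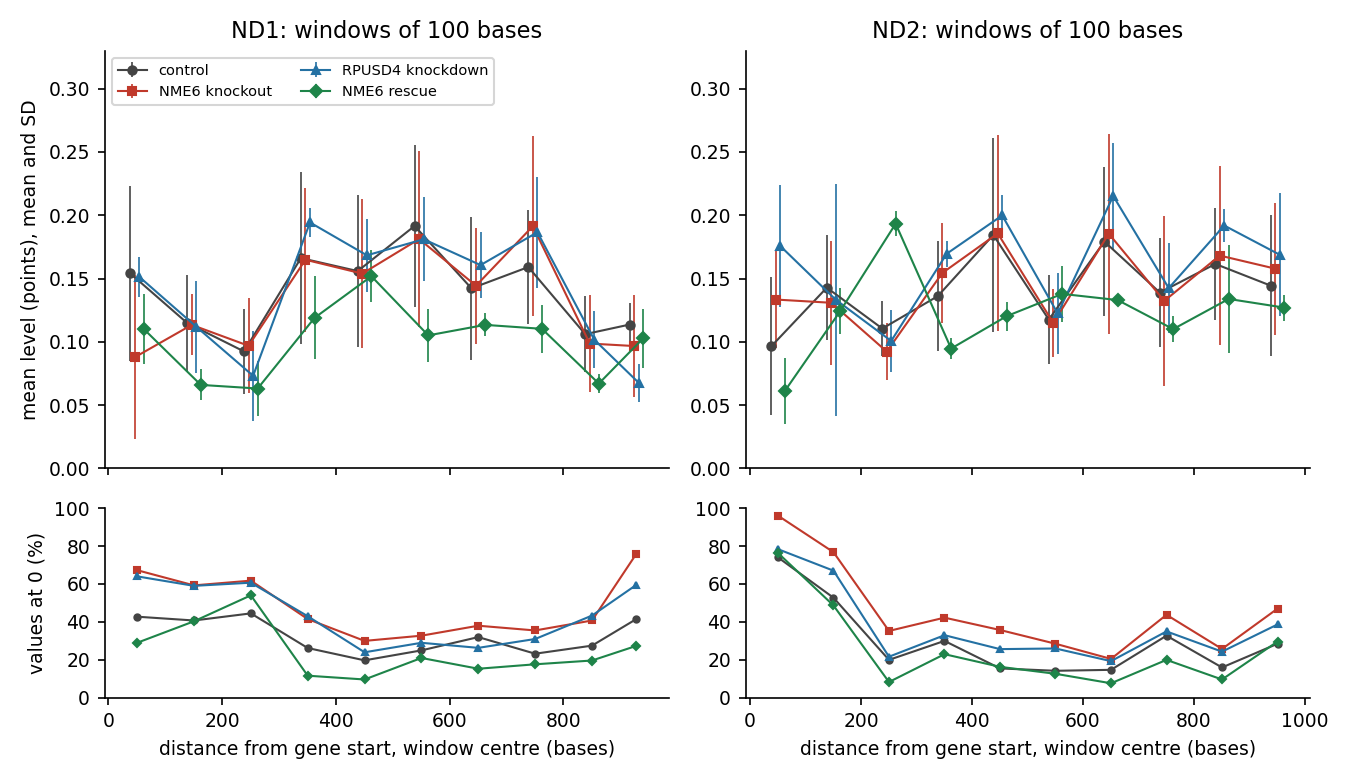
Top: mean level in points (mean and SD over libraries) in windows of 100 bases along ND1 (left) and ND2 (right), by distance from the gene start. Bottom: percent of values listed at exactly 0 in each window. At bases 201 to 300 of ND2 the rescue reads 0.193 points, against 0.0922 to 0.110 points in the other groups, and it has the fewest zeros there.

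At single positions, the test was made where the mean level over all libraries was at least 1 point. It kept 149 positions, 8 of them in ND1 and 8 in ND2, which is 0.837 and 0.768 per 100 bases; the other 11 mRNAs ranged from 0 in ND4L to 1.04 in COX1. The last position kept in ND1 was 3656 with 1.02 points and the first left out was 4078 with 0.980 points. In ND2 these were 4998 with 1.05 points and 4548 with 0.983 points. A position that passed this filter through 1 high group had to differ, so counts over the 16 are descriptions. None of the 16 passed in any of the 5 comparisons, where 0.671%, 0%, 3.36%, 2.68% and 3.36% of the 149 passed in the order given above.

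In ND1 the tested positions were bases 75, 88, 89, 164, 350, 548, 751 and 774 (positions 3381, 3394, 3395, 3470, 3656, 3854, 4057 and 4080). Their means over all libraries lay between 1.02 and 1.16 points, so no ND1 position stood far above the rest. The highest control levels were at positions 3381, 3394, 3820, 3821 and 4080. Position 3381 showed how uneven they are: it read 0.221, 2.51, 1.06 and 1.02 points in the control libraries and -0.364, 1.33, 0.863 and 1.11 points in the knockout libraries. It spanned more than the distance between any group means.

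Position 3470, base 164 of ND1 and the middle base of codon 55, came nearest to the threshold. It read 1.06, 1.13, 1.003 and 0.698 points in the control and 2.15, 1.50, 1.52 and 1.01 points in the NME6 knockout. RPUSD4 knockdown libraries read 1.44, 1.14 and 1.24 points, and rescue libraries 0.243, 0.908 and 0.389 points. The rescue lay below the whole knockout, and the knockdown just above the whole control. Rescue minus knockout was -1.03 points (SE 0.265, 95% interval -1.61 to -0.451, limma adjusted p = 0.0500391 over 149 positions), just above the threshold. It passed in 6 of 16 alternatives, over which the limma adjusted p ran from 0.0106 to 0.588. Among these were the fits without NME6 knockout replicate 4 (-1.21 points, limma adjusted p = 0.0144, 4.03% of the 149 positions called) and without NME6 rescue replicate 2 (-1.23 points, limma adjusted p = 0.0355, 6.04% called). With replicate number as a block position 3470 also passed (-1.17 points, limma adjusted p = 0.0362, 6 of 149 called). The knockdown exceeded the control by 0.301 points (limma adjusted p = 0.733) and the knockout exceeded it by 0.573 points (limma adjusted p = 0.768).

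The neighbouring ND1 positions 3820 and 3821, bases 514 and 515, had a mean under 1 point and were outside the main test. They were named because the control was high there, so a rescue below the control is in part built in by that choice. Position 3820 read 0.866, 1.17, 1.35 and 1.06 points in the control and 0.106, 0.217 and 0.139 points in the rescue. In the knockout it read 0.165, 0.688, 0.997 and 0.670 points and in the knockdown 0.767, 0.927 and 0.210 points. Control and rescue did not overlap, as at 6.5% of the 14928 positions not at 0 in every library. Position 3821 had 1.30 ± 0.259 points (SD, n = 4) in the control and 0.317 ± 0.194 points (n = 3) in the rescue, again without overlap. In the fit without a level filter the rescue minus control differences were -0.956 points (limma adjusted p = 0.132) and -0.982 points (limma adjusted p = 0.404), and neither passed.

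ND2 held the highest tested levels of the pair. Position 5247, base 778 and the first base of codon 260, averaged 1.94 points over all libraries. It read 1.71, 2.14, 2.30 and 2.27 points in the control, 0.862, 2.56, 2.96 and 1.69 in the knockout, 1.69, 1.17 and 1.68 in the knockdown and 2.19, 2.22 and 1.66 points in the rescue. The knockdown libraries lay just below all control libraries, with the highest at 1.69 against the lowest control at 1.71 points. Knockdown minus control gave -0.592 points (SE 0.528, 95% interval -1.75 to 0.565, limma adjusted p = 0.733). Its mean was 2.02 points in the rescue and 2.10 in the control (difference -0.0817 points, 95% interval -1.24 to 1.08, limma adjusted p = 1).

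Positions 5087 and 5088, bases 618 and 619 of ND2, lie side by side and gave nearly the same levels (median gap 0.0772 points over 14 libraries). Position 5088 read 0.797, 1.43, 1.30 and 1.35 points in the control, 0.894, 1.35, 1.96 and 1.002 in the knockout, 1.88, 1.26 and 1.83 in the knockdown and 0.687, 0.412 and 0.298 points in the rescue. All 3 rescue libraries lay below all 11 others. The rescue differed from the control by -0.752 points (SE 0.298, limma adjusted p = 0.377) and from the knockout by -0.835 points (SE 0.298, limma adjusted p = 0.157), and neither passed. At position 5087 the rescue averaged 0.484 ± 0.202 points (SD, n = 3) and the control 1.08 ± 0.231 points (n = 4), also without overlap (limma adjusted p = 0.480).

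At position 5383, base 914 of ND2, the libraries read 0.537, 1.56, 2.15 and 1.80 points in the control, 1.12, 2.03, 2.25 and 2.23 in the knockout, 1.73, 1.69 and 1.79 in the knockdown and 0.773, 1.03 and 0.805 points in the rescue. The rescue lay below the knockout, while the low control replicate 1 fell below the rescue. Rescue minus knockout was -1.04 points (SE 0.427, limma adjusted p = 0.232). Without replicate 1 of the control and of the knockout it was -1.30 points and passed (limma adjusted p = 0.0035), in a fit that called 14.8% of the 149 positions.

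Position 4559 of ND2 was kept only through NME6 knockout replicate 1, which read 16.7 points, while the other 13 libraries read 0 to 0.466 points. At position 4586, control replicate 1 was at 4.35 points and NME6 knockout replicate 1 at 0. Both lie in the first 200 bases, where 61.8% to 81.7% of values were 0. The other tested positions, 4998 (mean 1.05 points) and 5418 (1.07 points), were above 0 in all 14 libraries, and the groups overlapped there in all 5 comparisons.

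**Figure D5:**
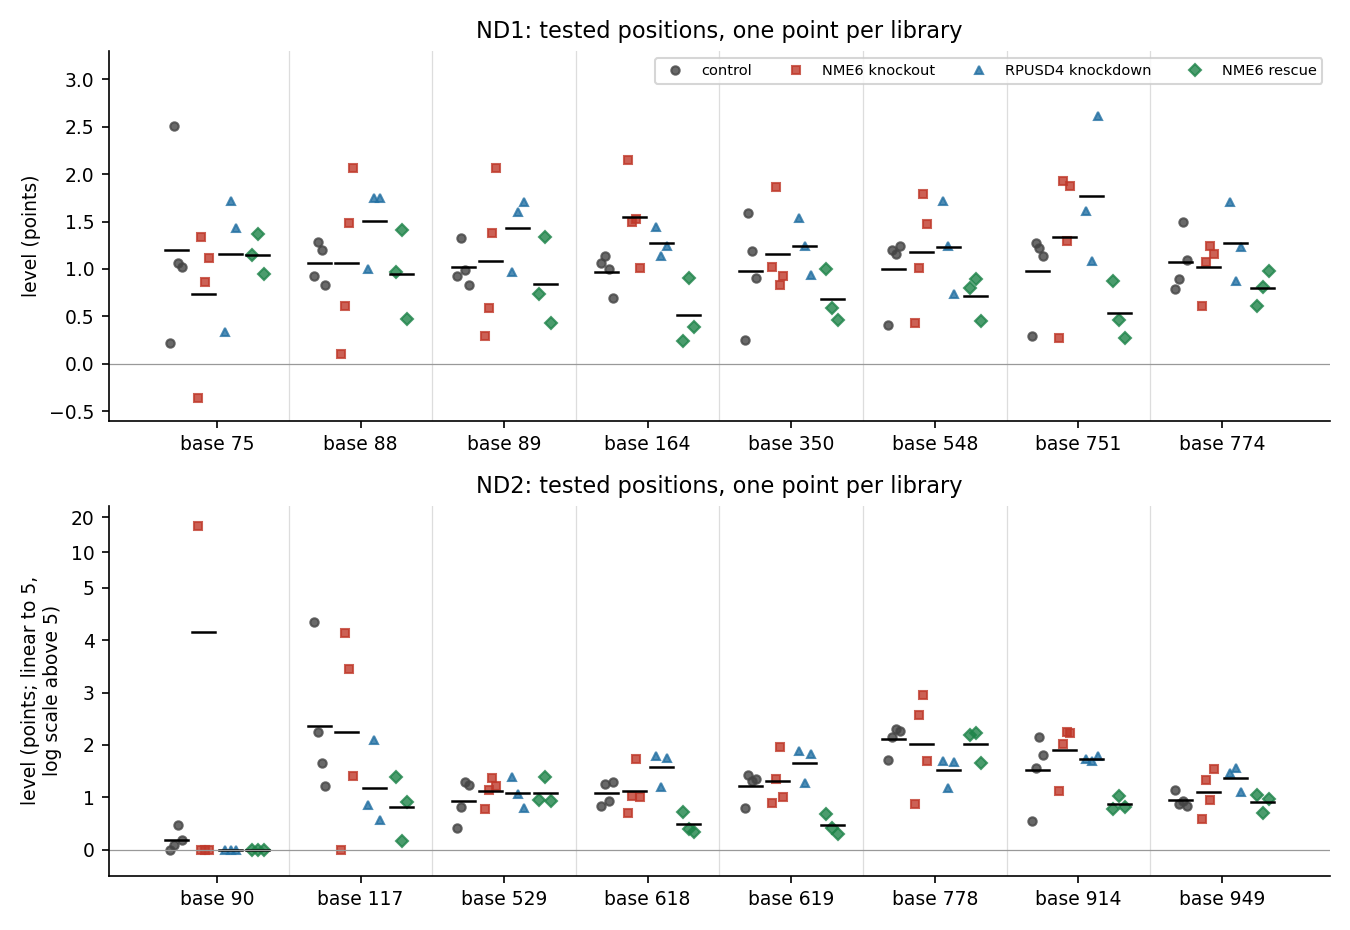
Levels in points at the 8 tested positions of ND1 (top) and of ND2 (bottom; linear up to 5 points and logarithmic above), 1 point per library and a line at each group mean, with positions named by their base in the gene. The rescue lies low at base 164 of ND1 and at bases 618, 619 and 914 of ND2 but not at base 778 of ND2; a single knockout library at 16.7 points carries base 90.

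Counted over the 16 tested positions, 12 read higher and 4 lower in the RPUSD4 knockdown than in the control; 1 was higher without overlap, against 3.36% of all tested, and 1 lower without overlap, against 2.68%. In the NME6 knockout 12 were higher and 4 lower than in the control, with none free of overlap (3.36% higher and 0.671% lower over all tested). In the rescue 14 of 16 were lower than in the knockout, 3 of them without overlap against 11.4% of all tested (8.05% were higher without overlap), and the median difference was -0.470 points, beside -0.403 points over all 149. Against the control 15 of 16 were lower in the rescue, 2 without overlap against 8.05% (7.38% were higher without overlap), with a median of -0.278 points beside -0.153 points over all 149. Between the knockout and the knockdown 10 of 16 were lower and none was free of overlap (3.36% higher and 6.04% lower over all tested). The 16 tested positions of the other complex I mRNAs had 15 lower in the rescue than in the knockout and 13 lower than in the control, none past the threshold. Over all 149 tested positions, 86 read higher and 48 lower in the knockdown than in the control, and 91 and 50 in the knockout. In the rescue 102 of the 149 were lower than in the knockout and 94 lower than in the control. For knockout minus knockdown 67 of the 149 were lower.

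With no level filter, 1915 positions of ND1 and ND2 entered a fit over 14928. It made 23 calls at 15 positions whose mean levels lay between -0.0337 and 0.345 points. There were 3 calls for RPUSD4 knockdown against control (background 0.241%), 3 for NME6 knockout against control (0.482%), 9 for rescue against knockout (1.05%), 3 for rescue against control (0.69%) and 5 for knockout against knockdown (0.509%). As shares of 1915 all of these lie below the background. At position 5502, base 1033 and close to the end of ND2, control libraries read 0.949, 0.695, 1.56 and 0.950 points. All 7 knockout and knockdown libraries were listed at 0, and the rescue read 0, 0.503 and 0.119 points. The control was above all others there; both perturbed groups differed by -1.04 points (limma adjusted p = 0.0114 for the knockout and 0.0321 for the knockdown). In the last 42 bases of ND2, 73.6% of values were 0, and whether reads were present at 5502 was not tested.

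Positions 5118 and 5120, bases 649 and 651 of ND2, lie in its middle, in the window with the fewest zeros. Position 5120 read 0.221, 0.504, 0.529 and 0.816 points in the control, -0.140, -0.0438, 0.166 and 0.0105 in the knockout, 0.817, 0.559 and 0.733 in the knockdown and 0.218, 0.207 and 0.235 points in the rescue. The knockout lay below all libraries of the other groups, and the rescue between the knockout and the knockdown. The knockout was below the knockdown by 0.705 points (difference -0.705, SE 0.121, limma adjusted p = 0.0286), and position 5118 likewise (difference -0.630, SE 0.105, limma adjusted p = 0.0242). Neither position was called for knockout minus control or for rescue minus knockout. At 5118 the knockout overlapped both other groups: its replicate 3 read 0.257 points, against 0.236 in control replicate 1 and 0.123 to 0.205 in the rescue. At 5120, 2 knockout libraries were negative, and the untreated level there was not analysed on its own. Position 4796 was negative in all 4 knockout libraries (-0.120 to -0.0933 points, 2 of them the same value) and at or above 0 elsewhere. It was called lower than in the control (-0.123 points, limma adjusted p = 0.000268), and a shared untreated value cannot be told apart from a change there.

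The libraries agreed on which positions were high only in part. Within a group, the Spearman correlation of levels over positions of ND1 had a median of 0.534 over 18 pairs of libraries, and of ND2 0.564; the other 11 mRNAs ranged from 0.351 in ND3 to 0.650 in ATP8. A level above 0 in all 14 libraries was found at 101 ND1 positions (10.6%) and 168 ND2 positions (16.1%), inside the range of the other mRNAs (0.765% to 17.1%). Neighbouring positions resembled each other, with r = 0.410 in ND1 and 0.361 in ND2 at a distance of 1 base, and 0.115 and 0.0585 at 2 bases. These correlations run over positions that share libraries and depth.

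By codon position, ND1 averaged 0.138, 0.135 and 0.119 points at codon bases 1, 2 and 3 over all libraries, and ND2 0.159, 0.144 and 0.125 points. Codon base 3 was lowest in 14 of 14 libraries for ND1 and in 12 of 14 for ND2. Libraries of a group appear to share an untreated profile, so these are not independent agreements. The codon bases rest on the assumed numbering, which was not checked. It also had the lowest mean in 6 of the other 11 mRNAs. Base composition was not used here, so how many uridines each codon position holds was not examined.

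The genes whose mean level ran most like that of ND1 over the 14 libraries were COX1 (Pearson r = 0.945), ND2 (0.944) and COX2 (0.930). For ND2 they were ND1 (0.944), COX1 (0.930) and COX2 (0.929). The libraries share depth and group, and among mRNAs such values were usual: the median r with the other 12 was 0.919 for ND1 and 0.892 for ND2. Without control replicate 1 and NME6 knockout replicate 1 the r of these pairs lay between 0.842 and 0.917.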

How the data were processed

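Of 20 samples, 14 CMC libraries with a profile were grouped by their labels; the 6 untreated samples were not analysed on their own. Mitochondria were isolated and their RNA was treated with CMC and made into stranded libraries, per the labels' protocols. Trimmomatic, STAR and SAMtools (no versions) and the build GRCh38/hg38 are listed in the submitters' processing notes; the sources used here do not give how altered reads were counted. The authors deposited a signed score per mitochondrial position (2 to 16571), without depth, so no counting interval is given. Members and lists were chosen with earlier results of these data known. Gene bounds came from RefSeq (GRCh38.p14 gene table); no sequence of ND1 or ND2 was used.

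Gene means (37 genes), positions with a mean of at least 1 point (149) and 100-base windows (139, added after the data were examined) were each fitted with limma 3.58.1 in R 4.3.3: all 4 groups in one fit, mean-variance trend, two-sided, Benjamini-Hochberg adjustment over the whole table, threshold 0.05. The exact permutation test was two-sided over libraries. The scripts were tested on simulated data. Named positions were all tested ones, the 5 highest control positions of each gene and, per comparison, the largest difference without overlap; positions 4796, 5118, 5120 and 5502, the codon positions and the ND2 window with its positions were chosen after their values were seen. Replicate numbers of NME6 knockout and control were taken as pairs, from the data only (same-number r 0.471, 0.286, 0.193 and 0.116). The highest r with a library of another number was -0.340, 0.246, 0.159 and 0.121. For replicates 2 and 3 the margin was small, and for replicate 4 another number gave the higher r. Replicate 1 was the low library with the most zeros in both groups (58.9% in the control, 68.2% in the knockout over all positions). Its r therefore cannot tell a pair from a shared low level. The data thus show no clear pair, and the main fits used no pairing. Other groups shared only numbers.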

Additional observations from a re-analysis of the deposited data

Results flagged for a closer look

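In groups of 4 libraries, 44 sets of values were examined for a library far from the rest, and 6 stood out by Dixon's criterion. Chance alone marks about 1 in 20, but several sets were named because a library or the control was high. The count of 6 is therefore a description, and whether it is an excess cannot be judged. Where all other libraries of a group are listed at 0, a library with any other value stands out whatever its size. At ND1 position 3854 control replicate 1 read 0.413 points, against 1.15 to 1.24 in the other control libraries. At ND1 position 4057 control replicate 1 read 0.292 points, against 1.14 to 1.28. At ND2 position 4509 control replicate 1 read 2.86 points, against 0.537 to 0.858. NME6 knockout replicate 4 read 0.685 points at that same position, where the other knockout libraries were listed at 0. NME6 knockout replicate 1 read 16.7 points at ND2 position 4559, where the other knockout libraries were listed at 0. In ND2 bases 201 to 300 NME6 knockout replicate 1 read 0.126 points, against 0.0794 to 0.0845; the rescue libraries lay above it. Replicate 1 of its group was the library concerned in 5 of the 6, and it also had the most zeros.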

How the results depend on the processing

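Depth is unknown and limits every value here; levels near 0 and at the gene ends are the least certain. The cause of the changes below was not tested. Leaving out 1 library at a time, differences of gene means ran, for ND1 and then ND2, from -0.0193 to 0.0117 and from -0.0058 to 0.0295 points (RPUSD4 knockdown minus control), from -0.0277 to 0.0163 and from -0.0203 to 0.0207 (NME6 knockout minus control), from -0.0563 to -0.0230 and from -0.0401 to -0.0114 (rescue minus knockout), from -0.0616 to -0.0306 and from -0.0422 to -0.0085 (rescue minus control), and from -0.0193 to 0.0141 and from -0.0271 to 0.0037 (knockout minus knockdown).

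Without replicate 1 of both control and NME6 knockout, ND1 and ND2 gave -0.0193 and -0.0058 points (knockdown minus control), ND2 -0.0021 (knockout minus control), ND1 -0.0563 (rescue minus knockout, now past the threshold), -0.0616 and -0.0422 (rescue minus control, both past it) and 0.0141 and 0.0037 (knockout minus knockdown). With library weights the values were -0.0166 and -0.0019, ND2 -0.000926, ND1 -0.0546 (past), -0.0592 and -0.0401 (both past), and 0.0120 and 0.0010. On a signed log2 scale ND1 was -0.0050 (knockdown minus control) and ND2 -0.0129 (knockout minus control). With levels limited to 5 points ND2 was -0.0013 (knockout minus control). With scaled libraries ND2 was 0.0121 (rescue minus knockout) and 0.0141 (rescue minus control). With exact zeros left out the values were 0.0503 and 0.0581 (knockdown minus control), 0.0490 and 0.0717 (knockout minus control), -0.119 and -0.105 (rescue minus knockout) and -0.0696 for ND1 (rescue minus control), all past the threshold, and 0.0136 for ND2 (knockout minus knockdown).

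Position calls among ND1 and ND2 were 0 in every comparison as reported. Without a level filter they were 3, 3, 9, 3 and 5. For rescue minus knockout they were 0 to 1 with 1 library left out, 3 without both replicates 1 (22 of all 149 positions), 1 on the signed log2 scale (11 of 149) and 6 with library weights (28 of 149). For rescue minus control they were 1 without both replicates 1 (12 of 149) and 3 with library weights (29 of 149). A mean of 2 points or more leaves no ND1 or ND2 position.

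Window calls for rescue minus knockout were 1 as reported, 1 to 5 with 1 library left out, 12 without both replicates 1 (80 of all 139 windows), 2 with scaled libraries (16 of 139), 14 with library weights (89 of 139), 0 in windows moved by 50 bases (6 of 131) and 11 without exact zeros (101 of 139). For rescue minus control they were 0 as reported, 0 to 3 with 1 library left out, and in the same order 11 (79 of 139), 2 (8 of 139), 16 (102 of 139) and, without exact zeros, 1 (10 of 139). Without exact zeros 1 window was called in knockout minus control (16 of 139) and 1 in knockout minus knockdown (4 of 139).

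With replicate number as a block, position 3470 passed for rescue minus knockout (-1.17 points, limma adjusted p = 0.0362). That was 1 ND1 or ND2 position called, where 6 of all 149 were called. The ND2 window did not pass (0.0980 points, limma adjusted p = 0.0743). There 0 ND1 or ND2 windows were called, against 2 of all 139. The block changed no other call, and those groups share only a number.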
